A study of Mus musculus with 17 samples.

Results

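Goblet cells are the secretory cells of the intestinal epithelium that make the mucus layer, and 9 genes for the parts of that mucus and for the machinery around it were followed here: Muc2, Fcgbp, Zg16, Clca1, Tff3, Spink4, Guca2a, Agr2 and Muc13. The members were taken by their symbols as rows of the single-cell UMI count tables (a UMI, or unique molecular identifier, marks 1 captured RNA molecule), which hold 26422 gene rows in all, and all 9 rows were found. They were read in the cells that the authors kept after quality control. The organoids were grown from small-intestinal crypts of wild-type C57BL/6 mice, and each library pooled many organoids. All groups received ENR medium, which contains EGF, Noggin and R-spondin 1. The ENR+CV group (day 0, 2 libraries) was held with CHIR99021 and valproic acid, a medium that enriches for stem cells. The control group (7 libraries at days 0.25, 1, 2, 3, 4 and 6) was moved to ENR+CD, which keeps CHIR99021 and adds the Notch pathway inhibitor DAPT and drives cells towards the Paneth fate. The KPT-330 group (8 libraries at the same days) received ENR+CD with 160 nM KPT-330, an inhibitor of the nuclear export protein XPO1. Only day 6 in the control group and days 3 and 6 in the KPT-330 group have 2 libraries. The sources do not say whether 2 libraries of a group came from separate cultures, so p-values measure a spread between libraries that may be technical. In the KPT-330 fits over all time points, in all cells or within a range of cells, that spread has 8 residual degrees of freedom. It also holds differences of the KPT-330 effect between days. By their labels, all libraries of days 0.25 and 1 are replicate 1, and those of days 2 and 4 and the control of day 3 are replicate 2. Over these days, day and replicate number cannot be told apart in the control course.

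In the intestinal crypt, Notch signalling between neighbours decides whether a progenitor becomes absorptive or secretory, and a progenitor without it switches on the factor ATOH1. Goblet and Paneth cells both descend from such progenitors and share a well-developed secretory apparatus, but goblet cells release gel-forming mucin with its partner proteins, whereas Paneth cells release lysozyme and defensins. Mucin is folded in the endoplasmic reticulum, loaded with sugars in the Golgi and packed into granules that expand on release.

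One symbol needs care. The row Clca1 of these tables is the gene now named Clca3a1 (chr3:144729677-144760977, minus strand, GRCm38), and 24.13% of its 50-base stretches occur also in other genes, 22.18% in Clca3a2, so its counts are uncertain. The row Clca3 is the gene now named Clca1 (chr3:145003817-145032776, minus strand), the goblet cell protease once called gob-5, and none of its 50-base stretches was shared. The Clca3 row is therefore given beside the 9 members. Of the others, Fcgbp (chr7:28071236-28120862, plus strand) shared 6.423% of its 50-base stretches, nearly all with 9530053A07Rik, and Muc2 (chr7:141690340-141754693, plus), Zg16 (chr7:127050156-127087328, minus), Tff3 (chr17:31125306-31129646, minus), Spink4 (chr4:40920052-40931395, plus), Guca2a (chr4:119637704-119639471, plus), Agr2 (chr12:35992907-36004087, plus) and Muc13 (chr16:33794037-33819934, plus) shared none. An annotated antisense gene overlaps Muc13 and another overlaps the Clca1 row, and 2 genes annotated as a lincRNA and an snRNA overlap Zg16 on the other strand.

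The 200 bases before the start of Muc2, Fcgbp, Agr2 and Guca2a are printed to show how the regions ahead of members that rose in the same medium differ in their letters (RefSeq sequence, GRCm38.p6, all on the plus strand). Capitals mark, on either strand, the letters of a TATA box (TATAA), of a GATA factor site (GATAA, which reads TTATC on the other strand), of a forkhead factor site (TGTTTAC), or of an E-box of one kind (CAGCTG) or another that ATOH1 is known to bind (CAGATG).
Muc2, chr7:141690140-141690339: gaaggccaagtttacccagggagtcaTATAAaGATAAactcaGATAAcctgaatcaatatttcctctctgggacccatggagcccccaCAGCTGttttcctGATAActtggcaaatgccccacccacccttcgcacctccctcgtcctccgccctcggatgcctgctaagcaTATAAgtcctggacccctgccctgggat
Fcgbp, chr7:28071036-28071235: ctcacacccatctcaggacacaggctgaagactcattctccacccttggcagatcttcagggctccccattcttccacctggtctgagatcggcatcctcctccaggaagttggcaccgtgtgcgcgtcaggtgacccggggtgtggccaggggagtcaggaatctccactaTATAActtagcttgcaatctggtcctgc
Agr2, chr12:35992725-35992924: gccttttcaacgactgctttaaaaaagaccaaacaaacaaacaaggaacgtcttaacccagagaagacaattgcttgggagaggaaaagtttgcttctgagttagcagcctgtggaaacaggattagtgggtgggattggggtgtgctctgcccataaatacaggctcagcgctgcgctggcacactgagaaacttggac
Guca2a, chr4:119637532-119637731: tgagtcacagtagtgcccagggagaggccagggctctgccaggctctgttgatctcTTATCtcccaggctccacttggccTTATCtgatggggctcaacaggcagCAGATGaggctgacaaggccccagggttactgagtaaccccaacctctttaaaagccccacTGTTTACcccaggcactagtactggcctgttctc

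The letters TATAA stood 28 bases before the start in both Muc2 and Fcgbp. Muc2 also held GATAA at 168, 158 and 99 bases before the start, and Guca2a held TTATC at 144 and 120 and TGTTTAC at 34. The printed stretch of Agr2 held none of the 5 motifs. Among 32851 promoters of 250 bases, 22.78% held TATAA, 22.58% GATAA, 3.166% TGTTTAC, 13% CAGCTG and 14.44% CAGATG, so most of these letters are common, and a match is a description and not a binding site.

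The 17 libraries hold 19877 kept cells (531 to 1547 per library), with a median of 4710 UMIs per cell. Levels below are UMIs of a gene per 10000 UMIs of a library, summed over its kept cells, and they mix the number of cells that express a gene with the amount per cell, which cannot be told apart in sums. Marker lists of other cell types moved with the groups. A list of 19 Paneth genes, all detected, took 0.314% to 0.433% of UMIs in ENR+CV, 0.352% to 14.8% in controls and 0.517% to 22.7% with KPT-330. The 11 enterocyte genes took 0.293% to 1.79% in controls and 0.250% to 2.69% with KPT-330, and the part of these changes in the results below was not tested beyond the Paneth ranges given there.

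Together the 9 members took 0.149% and 0.187% of UMIs in the ENR+CV libraries and 1.34% in each control library of day 6. Their levels did not move as one. Muc2, Tff3, Spink4 and Guca2a climbed over the control course, Fcgbp and Zg16 were highest at day 2 and lower afterwards, Muc13 rose over a smaller range, and the Clca1 row was low throughout.

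Among the components of the gel, Muc2, the mucin that forms the net of the intestinal mucus, was measured at 0.0357 and 0.107 UMIs per 10000 in ENR+CV. In the control libraries it stood at 0.0363 at day 0.25, 0.287 at day 1, 0.896 at day 2, 1.24 at day 3, 2.20 at day 4, and 2.28 and 2.22 at day 6. Every control library from day 1 on lay above both ENR+CV libraries, and days 4 and 6 were close to each other. Fcgbp, a large mucus protein that is bound to the mucin net, was at 6.12 and 6.94 in ENR+CV and went through 5.32, 27.0, 42.2, 38.5 and 19.7 at days 0.25 to 4 to 18.5 and 20.8 at day 6. Its highest control value was thus at day 2, and the libraries of days 4 and 6 lay between those of days 0.25 and 1. Zg16, a lectin that binds bacterial cell walls in the mucus, was at 0.0134 and 0.0582 in ENR+CV and at 0.219, 0.230, 0.603, 0.408 and 0.00428 at days 0.25 to 4, the last being 3 UMIs, and at 0.0957 and 0.0699 at day 6. The Clca1 row was low throughout, with 638 UMIs in all 17 libraries. Its levels were 0.0402 and 0.0430 in ENR+CV and ran from 0.0451 to 0.114 in controls. The Clca3 row, the mucus-processing protease, had 2 and 5 UMIs in the ENR+CV libraries, was at 0.764 at day 2 and 0.0242 at day 4 in controls, and at 0.604 and 0.228 at day 6.

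Among the secreted peptides, Tff3, the trefoil peptide of goblet cells that aids repair of the epithelium, was at 3.68 and 3.60 in ENR+CV. It reached 3.17, 17.0, 24.7, 28.3 and 39.9 at days 0.25 to 4 and 56.0 and 56.7 at day 6, so each later control day lay above the one before. Spink4, a Kazal-type protease inhibitor of goblet cells, was at 0.855 and 2.35 in ENR+CV, at 1.63, 6.31, 19.2, 22.4 and 27.6 at days 0.25 to 4, and at 29.4 and 29.1 at day 6. Guca2a encodes guanylin, the peptide that activates the guanylate cyclase of the gut and with it fluid secretion. It was at 0.346 and 0.464 in ENR+CV, at 0.609, 1.31, 3.04, 4.86 and 7.22 at days 0.25 to 4 and at 10.9 and 9.14 at day 6, also without a step back between days.

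Agr2, a protein disulphide isomerase of the endoplasmic reticulum needed for mucin folding, was at 0.310 and 0.988 in ENR+CV and at 0.762, 2.68, 5.20, 6.56 and 7.15 at days 0.25 to 4. The day 6 controls, 6.26 and 6.24, lay between days 2 and 4. Muc13, a mucin that stays in the apical membrane and is made by several epithelial cell types, was at 3.53 and 4.17 in ENR+CV, 4.08 at day 0.25 and 6.93, 9.12, 9.36 and 10.4 at days 1 to 4. At day 6 it was at 11.0 and 10.1, and over all 17 libraries its highest level was 4.33 times its lowest, the smallest such ratio of the 9 members.

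**Figure D1:**
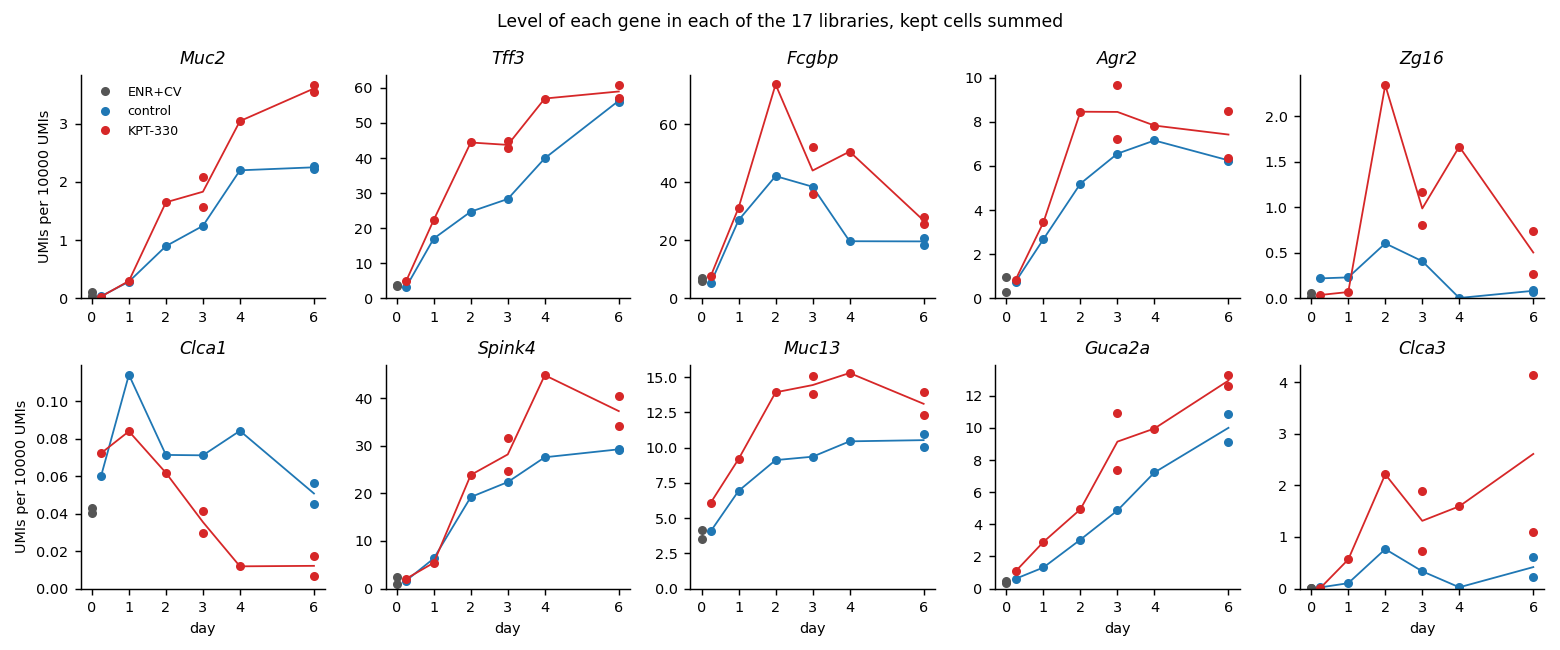
Level of each of the 9 members and the Clca3 row (UMIs per 10000 UMIs, linear axes) against day, 1 point per library and lines through the day means for ENR+CV, control and KPT-330. Tff3 and Guca2a climbed to day 6, Fcgbp peaked at day 2, and KPT-330 points lay above control points at most days except for the Clca1 row.

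At day 6 against ENR+CV, 7 of the 9 members rose in edgeR's quasi-likelihood test with Benjamini-Hochberg adjustment, as did the Clca3 row, where 39.9% of 13455 genes were called, 19.7% as higher and 20.2% as lower. The median log2 fold change of the 9 members was 3.41, beside 0.01 for all genes tested. Muc2 rose by 5.05 ± 0.34 (SE, adjusted p = 3.36e-06), Guca2a by 4.75 ± 0.29 (adjusted p = 1.60e-06), Spink4 by 4.34 ± 0.40, Tff3 by 4.06 ± 0.28 and Agr2 by 3.41 ± 0.39 on the log2 scale. Fcgbp rose by 1.70 ± 0.28 (adjusted p = 0.000755) and Muc13 by 1.57 ± 0.21 (adjusted p = 0.000231). The Clca3 row rose by 6.27 ± 1.12 (adjusted p = 0.0013), but from 2 and 5 UMIs, so the size of this value depends on how low counts are treated. Zg16 had a log2 fold change of 1.27 ± 0.64 (adjusted p = 0.136) and the Clca1 row one of 0.44 ± 0.36 (adjusted p = 0.356), and neither was called. The controls of days 2 to 4 gave the same calls against ENR+CV, at a background of 41.7% called, 19.8% higher and 21.9% lower, with Fcgbp at 2.30 ± 0.27, Muc2 at 4.21 ± 0.33 and Guca2a at 3.57 ± 0.27.

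Between days 2 to 4 and day 6 of the control course, where 0.907% of genes were called, 0.795% as higher and 0.111% as lower, Guca2a alone among the 10 rows was called. It rose by 1.18 ± 0.22 on the log2 scale (edgeR, adjusted p = 0.0321), and this call was lost without either control library of day 6, without either ENR+CV library, and without the control library of day 2 or of day 3. For 3 further rows the unadjusted p was under 0.05, with Tff3 at 0.99 ± 0.22 (adjusted p = 0.0693), Muc2 at 0.84 ± 0.24 (adjusted p = 0.173) and Fcgbp at -0.60 ± 0.25 (adjusted p = 0.408). The remaining 6 rows ran from -0.44 to 1.33.

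The second question was how the members stood with KPT-330 at matched days, the contrast the study was built on. With KPT-330, 7 of the 9 members and the Clca3 row rose over the time course, most of them by 1.5-fold to 2-fold in the edgeR fit. That fit scales libraries otherwise than the levels printed here, whose ratios to control were often smaller. By day they ran from 1.09 to 1.63 for Agr2, from 0.857 to 1.63 for Spink4 and from 1.29 to 2.21 for Guca2a. The members' combined share of UMIs was higher with KPT-330 at every time point, for instance 1.73% against 1.05% at day 2 and 1.90% against 1.14% at day 4.

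Guca2a with KPT-330 was at 1.08, 2.90, 4.93, 10.9 and 7.37 (both day 3), 9.96, and 12.6 and 13.3 (both day 6). It was above the control at all 6 time points, with ratios of 1.77, 2.21, 1.62, 1.88, 1.38 and 1.29 in order of day. Tff3 with KPT-330 was at 4.82, 22.4, 44.4, 44.8 and 42.7, 57.0, and 57.0 and 60.9. It too was higher at all 6 time points, but its ratio went from 1.80 at day 2 to 1.05 at day 6, where the 2 groups nearly met. Spink4 was at 2.04, 5.41, 23.9, 31.6 and 24.7, 44.8, and 34.1 and 40.4, higher at 5 of 6 time points and lower at day 1.

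Muc2 was at 0.0306, 0.298, 1.65, 1.57 and 2.08, 3.04, and 3.66 and 3.54, so that the day 6 libraries lay well above the controls of that day while days 0.25 and 1 did not stand apart from theirs. Fcgbp was at 7.74, 31.2, 73.8, 36.0 and 52.2, 50.6, and 28.0 and 25.7. Its peak at day 2 was also present with KPT-330, 1 of the 2 day 3 libraries lay below the control of that day, and the ratio was highest at day 4, at 2.57. Agr2 was at 0.849, 3.44, 8.45, 7.22 and 9.67, 7.83, and 6.37 and 8.47, above the control at all 6 time points but by 1.09-fold at day 4. Muc13 was at 6.10, 9.19, 13.9, 13.8 and 15.1, 15.3, and 12.3 and 13.9, with ratios from 1.24 at day 6 to 1.54 at day 3.

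Zg16 and the Clca rows behaved differently from these. Zg16 with KPT-330 was at 0.0372 and 0.0694 at days 0.25 and 1, below the controls of those days (0.219 and 0.230), and at 2.34, 0.803 and 1.17, 1.67, and 0.739 and 0.267 afterwards, above them. The early control values rest on single cells, since 1 cell held 157 of the 175 Zg16 UMIs at day 0.25 and another 71 of the 113 at day 1. Without that cell the control was at 0.0226 at day 0.25, below the KPT-330 value, and at 0.0856 at day 1. With the top cell of the KPT-330 library left out as well, KPT-330 was at 0.00439 and 0.0434 at these days, below the controls again. The Clca3 row was at 0.0131, 0.564, 2.22, 0.729 and 1.90, 1.59, and 4.13 and 1.09, higher at 5 of 6 time points, and the first of its 2 day 6 libraries was the highest of all 17. The Clca1 row was at 0.0722, 0.0838, 0.0617, 0.0411 and 0.0298, 0.0118, and 0.00672 and 0.0175, lower than the control at 5 of 6 time points, but the last 3 libraries rest on 5, 3 and 7 UMIs.

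In the fit over all time points (15 libraries, time point as a term), 28.6% of 12812 genes were called, 14.4% as higher and 14.2% as lower. The members that rose were Guca2a by 0.96 ± 0.12 (edgeR, adjusted p = 0.000291), Muc2 by 0.84 ± 0.13 (adjusted p = 0.00101), Fcgbp by 0.83 ± 0.16 (adjusted p = 0.00315), Muc13 by 0.76 ± 0.09 (adjusted p = 0.000252), Tff3 by 0.72 ± 0.12 (adjusted p = 0.00097), Agr2 by 0.59 ± 0.10 (adjusted p = 0.00116) and Spink4 by 0.58 ± 0.14 (adjusted p = 0.00797). The Clca3 row rose by 2.78 ± 0.53 (adjusted p = 0.00258). Zg16 was at 1.90 ± 0.74 (adjusted p = 0.0682) and the Clca1 row at -0.67 ± 0.27 (adjusted p = 0.0713), neither of them called. The median over the 9 members was 0.76, beside -0.00 for all genes. With scaling to library totals alone, the median of all genes moved to -0.27, 8.75% of the calls were higher in place of 50.3%, and these 8 rows stayed called as higher while the Clca1 row was called as lower.

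At day 6 alone, where 1.25% of 13455 genes were called and 0.624% as higher, every KPT-330 library lay above both controls for all rows except the Clca1 row, for which both lay below. How many of all genes separate in this way with 2 libraries a side is not given here, so this order only describes the rows. Only Zg16 was called (log2 fold change 3.02 ± 0.52, edgeR, adjusted p = 0.0323), and that call was lost without either control library of day 6 or without KPT-330 replicate 1. In KPT-330 replicate 2, 1 cell held 103 of the 107 Zg16 UMIs, and without it the level was 0.0100, below both controls (0.0957 and 0.0699). In control replicate 2, 1 cell held 30 of the 31 UMIs, and without it that library was at 0.00226, below this 0.0100. The order of the Zg16 libraries at day 6 thus rests on single cells. Muc2 was at 1.09 ± 0.27 (adjusted p = 0.0806) and the Clca3 row at 3.09 ± 0.67 (adjusted p = 0.0518). In a simulation of this contrast with 12918 genes, 47% of genes changed by 1 on the log2 scale were recovered, so changes of the size seen over the whole course are often missed with 2 libraries a side.

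Whether the effect changed from days 0.25 to 2 to days 3 to 6 was tested as an interaction. None of 12812 genes was called (0% called) and 1333 had an unadjusted p under 0.05. Among the rows these were Zg16 at 3.06 ± 1.24 (edgeR, adjusted p = 0.419), the Clca1 row at -1.31 ± 0.42 (adjusted p = 0.311) and Spink4 at 0.57 ± 0.23 (adjusted p = 0.407), and the other 7 ran from -0.04 to 1.51.

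**Figure D2:**
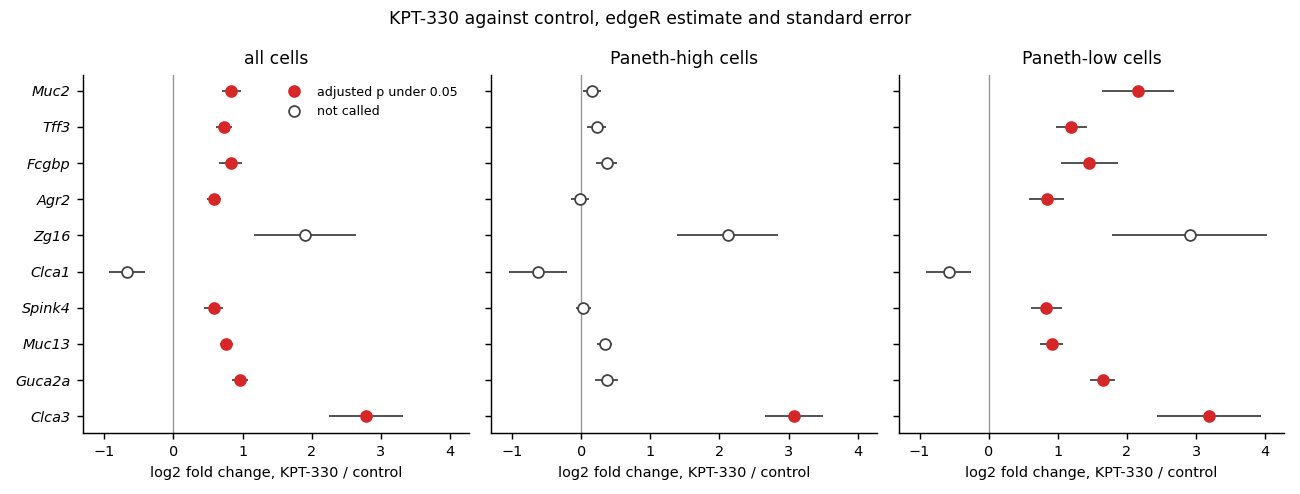
Log2 fold change of KPT-330 over control with its standard error for the 9 members and the Clca3 row, in all cells, in Paneth-high cells and in Paneth-low cells (days 0.25 to 6, time point as a term), filled where the adjusted p was under 0.05. In all cells 8 rows were called, in Paneth-high cells only the Clca3 row, and in Paneth-low cells 8 rows.

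The steps that make and deliver mucus were read from 6 lists of genes, here over whole libraries and further below within ranges of the Paneth share of cells. Among 13 secretory transcription factors, 12 rose and 1 fell at day 6 against ENR+CV, where 19.7% of all genes rose and 20.2% fell. Those with the smallest p were Bhlha15, a factor of secretory cell architecture, at a log2 fold change of 4.10 (edgeR, adjusted p = 8.44e-07), Creb3l4 at 3.40, Spdef, the factor of goblet and Paneth maturation, at 3.34 and Atoh1 at 3.06. Of 16 tested genes of mucin O-glycosylation, 10 rose and 1 fell, among them the first-step transferases Galnt5 at 4.56 and Galnt3 at 0.99, the chaperone C1galt1c1 at 1.42 and the branching enzyme Gcnt3 at 1.41. Of 18 genes of protein folding in the endoplasmic reticulum, 14 rose and 1 fell, led by Ern2, the stress sensor of mucous cells, at 3.56 and the sulfhydryl oxidase Qsox1 at 2.57.

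Of 19 tested genes of granule traffic and release, 12 rose and 2 fell, with Sytl2 at 4.00, Slc12a8 at 3.58 and Mlph at 2.09. Of 18 tested other goblet cell genes, 15 rose and none fell, with Ang4 at 6.22, Ramp1 at 5.77, Guca2b, which encodes uroguanylin, at 4.78 and Hepacam2 at 3.56. Ang4 is also one of the 19 Paneth genes and belongs to a family with near copies, so its counts are uncertain. Of 9 membrane mucin genes 3 could be tested, and Muc3 rose by 3.06 and Cdhr5 by 1.97 while Muc4 fell by 1.34. With scaling to library totals, where 14.3% of all genes were called as higher, the 6 lists held 10, 8, 10, 11, 15 and 2 higher genes, in the same order.

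With KPT-330 over all time points, the same lists held 6, 7, 13, 9, 11 and 1 genes that rose, and 1 gene, Muc4, that fell (log2 fold change -0.75, edgeR, adjusted p = 0.01), beside 14.4% of all genes called as higher and 14.2% as lower. These counts depended on the scaling. With library totals they were 3, 3, 1, 3, 8 and 1 higher, with 2 secretory factors, 3 granule genes and Muc4 lower, beside 3.67% of all genes called as higher and 38.2% as lower. Each of the higher genes in these lists was also higher under the main scaling, so 1 of 13 folding genes and 8 of 11 other goblet cell genes held their calls. The other goblet cell genes with the smallest p were Smim6 at 1.05 (adjusted p = 1.77e-05), Ramp1 at 1.05, Lypd8, a protein that keeps flagellated bacteria from the mucosa, at 0.95 and Gm1123 at 0.93. Among the factors, Spdef rose by 0.54 (adjusted p = 0.000875), Atoh1 by 0.60 and Klf4, a factor of goblet differentiation, by 0.77, and among the glycosylation genes C1galt1c1 by 0.61 and Gcnt3 by 0.73. Qsox1 rose by 0.61, Mlph by 0.67, Sytl2 by 0.93 and Cdhr5 by 0.66. The calls of Bhlha15 (0.41), Galnt6 (0.45), Galnt7 (0.49), Fkbp11 (0.42), Tmed3 (0.53), Calr (0.42), Vamp8 (0.49) and Slc12a8 (0.29) were lost with library totals.

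The third question was whether the mucus genes and the Paneth genes were found in the same cells. Each cell was placed by the share of its UMIs from the 19 Paneth genes, none of which is a member: Paneth-high at 5% or more (6743 cells), Paneth-low under 1% (11425 cells) and a middle range (1709 cells). These are ranges and not cell types, and 419 cells lay between 4% and 6% and 547 between 0.8% and 1.2%. The median depth of the ranges was close, with 4600 UMIs in Paneth-high, 4796 in middle and 4756 in Paneth-low cells. Levels in the ranges are UMIs per 10000 UMIs outside the Paneth list, so that a large Paneth share does not by itself lower them.

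Most of the members, 7 of 9, were far higher in Paneth-high cells. Muc2, Tff3, Fcgbp, Agr2, Spink4, Muc13 and Guca2a were higher in the Paneth-high than in the Paneth-low cells of the same library in 16 of 16 libraries. The contrast, which moved 58.6% of 12431 genes (25.2% higher, 33.4% lower), gave log2 fold changes of 5.54 ± 0.26 for Spink4 (edgeR, adjusted p = 2.96e-13), 5.13 ± 0.30 for Guca2a, 4.43 ± 0.48 for Muc2, 4.06 ± 0.28 for Tff3, 3.58 ± 0.24 for Agr2, 3.10 ± 0.32 for Fcgbp and 1.36 ± 0.14 for Muc13 (adjusted p = 5.23e-08). The Clca1 row fell by 1.42 ± 0.28 (adjusted p = 0.000137). Zg16 at -1.19 ± 1.02 (adjusted p = 0.329) and the Clca3 row at 0.60 ± 0.68 (adjusted p = 0.472) were not called, each being higher in the Paneth-high cells of 8 of 16 libraries, and the sign of both changed with the settings. In the same contrast the 6 lists, in their earlier order, held 13, 13, 18, 14, 13 and 1 higher genes. Lower genes numbered 0, 1, 0, 3, 0 and 2, of 13, 17, 18, 19, 17 and 3 tested.

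Over finer steps of the Paneth share at days 2 to 6, the members took different courses. Muc2 in controls went from 0.0895 ± 0.106 (SD over 5 libraries) in cells under 0.5% to 5.55 ± 1.01 in cells over 20% and was highest in that last step, as was Muc13, from 6.16 ± 1.39 to 20.6 ± 2.11. Fcgbp was highest at 5 to 10%, at 94.3 ± 29.9, with 79.7 ± 13.7 at 10 to 20% within the spread, and stood at 47.0 ± 13.9 over 20%. Tff3 went from 3.20 ± 1.95 to 125 ± 47.1 at 10 to 20% and 103 ± 34.3 over 20%, and Guca2a from 0.319 ± 0.161 to 23.3 ± 8.59 and 18.4 ± 5.82, but in both the last step lay within the spread between libraries. Zg16 was highest at 1 to 2%, at 1.78 ± 2.42, and stood at 0.0202 ± 0.0262 over 20%, but the SD of both exceeded the mean. With KPT-330 Fcgbp again was highest at 5 to 10%, at 115 ± 58.3 over 6 libraries, and Zg16 at 1 to 2%, at 3.54 ± 4.08. Neighbouring steps lay within this spread, with Fcgbp at 102 ± 35.2 at 10 to 20% and Zg16 at 3.50 ± 4.60 at 0.5 to 1%.

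**Figure D3:**
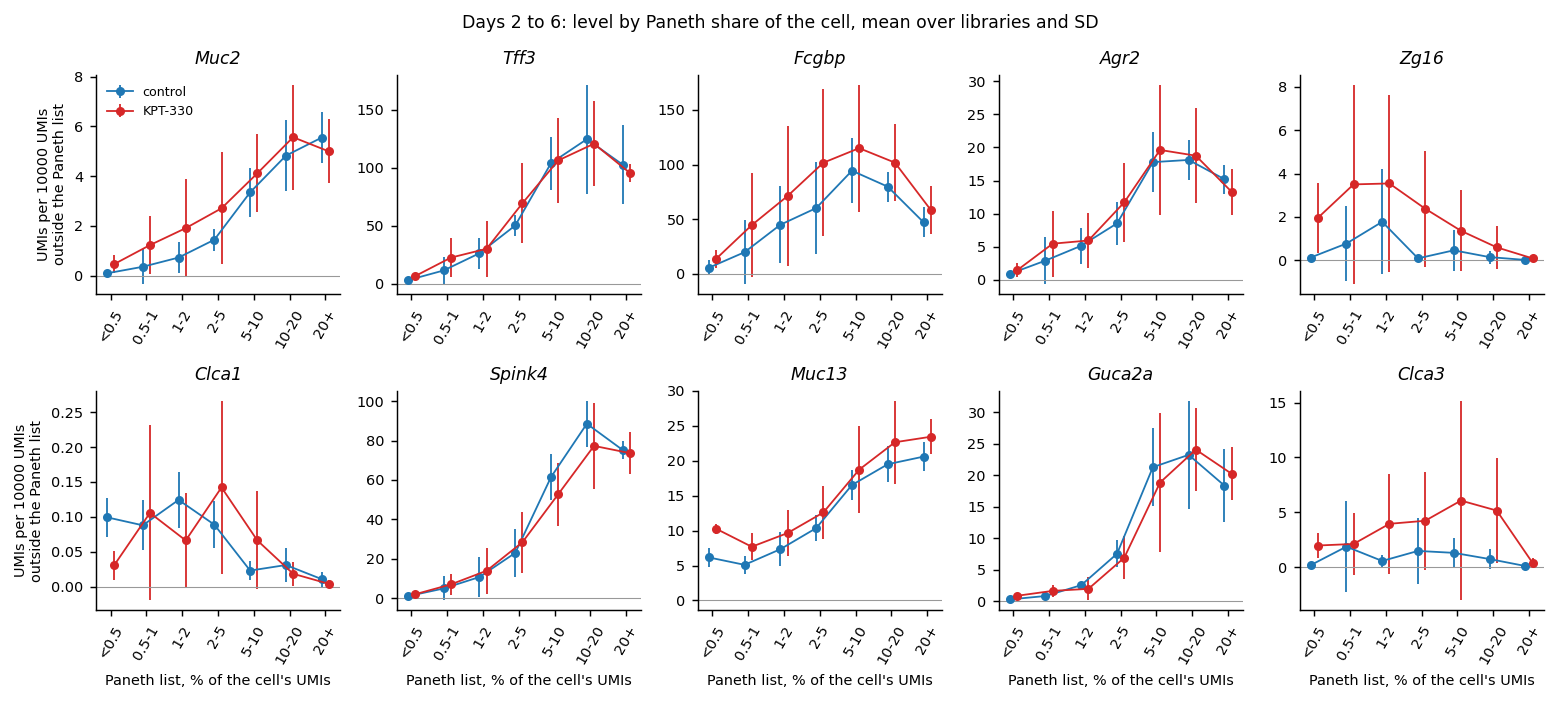
Level (UMIs per 10000 UMIs outside the Paneth list, linear axes) of the 9 members and the Clca3 row at days 2 to 6 against the Paneth list's share of a cell's UMIs, as means with SD over control and KPT-330 libraries with at least 20 cells in a step. Muc2 and Muc13 were highest or near it in the last step, and the control and KPT-330 lines lay within 1 SD of each other in the last step for most rows. Fcgbp was highest at 5 to 10% and Zg16 at 1 to 2%, but neighbouring steps lay within the spread between libraries.

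Counted by cells, with every cell thinned to 1000 UMIs, Muc2 was detected in 29.3% of control and 26.1% of KPT-330 Paneth-high cells at days 2 to 6, and in 0.804% and 2.40% of Paneth-low cells. Enterocyte-range cells (2% or more enterocyte UMIs and Paneth-low), which should lack Muc2, held it in 0.452% and 0.423%, so the control Paneth-low share lies close to that background. Tff3 was detected in 97.3% and 96.1% of Paneth-high cells, 18.4% and 17.7% of Paneth-low cells and 7.24% and 10.6% of enterocyte-range cells. Zg16 was detected in 0.259% and 1.03% of Paneth-high and 0.305% and 1.30% of Paneth-low cells, against 0.151% and 0.211% in the enterocyte range. Without thinning the Muc2 shares were 67.8% and 59.4% in Paneth-high and 2.30% and 5.43% in Paneth-low cells, and those of Tff3 99.3% and 99.3%, and 48.4% and 49.0%, at median depths of 5168 and 4298 UMIs in Paneth-high, 4688 and 5601 in Paneth-low and 8654 and 7178 in enterocyte-range cells. For Zg16 they were 0.777% and 2.87% in Paneth-high and 0.860% and 3.07% in Paneth-low cells. Thinning left out 6 control and 9 KPT-330 cells.

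Muc13 differed from most members outside the Paneth-high cells. Its level in enterocyte-range cells was above that in all Paneth-low cells of the same library in 5 of 5 control and 6 of 6 KPT-330 libraries of days 2 to 6, whereas for Tff3, Fcgbp, Agr2 and Spink4 this held in none. At days 2 to 6 the median level of Muc13 over libraries in enterocyte-range cells was 12.1 in controls and 11.6 with KPT-330, above its medians of 5.65 and 10.1 in all Paneth-low cells. In Paneth-low cells of these days Muc13 ran from 4.53 to 7.38 in controls and from 8.66 to 10.4 with KPT-330 without overlap. At day 0.25 it was at 3.86 in the control and 5.86 with KPT-330. How many of all genes separate in this way is not given here, so this only describes Muc13. The make-up of the Paneth-low cells moved with the groups: at days 2 to 6 enterocyte-range cells were 5.06% to 38.5% of them in controls (median 15.8%) and 7.89% to 72.3% with KPT-330 (median 54.5%), and enteroendocrine-range cells (0.5% or more enteroendocrine UMIs) 10.2% to 39.1% and 1.72% to 67.4%. Guca2a in enterocyte-range cells ran from 0.127 to 0.972 in controls and from 0.288 to 5.86 with KPT-330, or to 2.73 without KPT-330 day 6 replicate 2, where 84 UMIs in 22 cells gave the highest value. It was above the level in all Paneth-low cells in 3 of 5 control and 4 of 6 KPT-330 libraries.

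The KPT-330 contrast was then taken within the ranges. Within Paneth-high cells, where 4.96% of 11029 genes were called, 3.03% as higher and 1.93% as lower, none of the 9 members was called, and only the Clca3 row rose, by 3.08 ± 0.42 on the log2 scale (edgeR, adjusted p = 0.00039). At days 2 to 6 that row ran from 0.0122 to 0.727 in controls and from 0.648 to 5.54 with KPT-330. Muc13 at 0.34 ± 0.11 (adjusted p = 0.0728), Zg16 at 2.12 ± 0.73 (adjusted p = 0.105), Fcgbp at 0.37 ± 0.15 (adjusted p = 0.184) and Guca2a at 0.37 ± 0.16 (adjusted p = 0.231) had an unadjusted p under 0.05, and the other 5 rows ran from -0.63 to 0.22. Muc2 in these cells was at a median of 5.71 in controls and 5.27 with KPT-330 at days 2 to 6, with overlapping ranges of 2.71 to 6.18 and 3.14 to 6.90. Of the 6 lists, in the same order, 1, 0, 0, 2, 4 and 0 genes were higher with KPT-330 in these cells and 1, 1, 0, 0, 0 and 1 lower.

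Within Paneth-low cells, where 18.8% of 12373 genes were called, 8.21% as higher and 10.6% as lower, 7 of the 9 members rose with KPT-330. Muc2 was at 0.0106, 0.150, 0.367, 0.0366, 0.0279, and 0.0400 and 0.0649 in the controls in order of day, and at 0.0120, 0.212, 0.839, 0.150 and 0.494, 1.01, and 0.0687 and 0.162 with KPT-330. The control was highest at day 2 and the KPT-330 group at day 4, and each KPT-330 library lay above the controls of its day. It did so only just at day 0.25 and in day 6 replicate 1, where 2 UMIs in 47 cells gave 0.0687, against 0.0649 in control replicate 2. Guca2a was at 0.126, 0.743, 0.384, 0.297, 0.214, and 0.480 and 0.519 in controls and at 0.353, 1.58, 0.724, 0.888 and 0.676, 1.13, and 1.65 and 1.19 with KPT-330. The log2 fold changes were 2.16 ± 0.52 for Muc2 (edgeR, adjusted p = 0.0178), 1.65 ± 0.19 for Guca2a (adjusted p = 0.000489), 1.46 ± 0.42 for Fcgbp (adjusted p = 0.0305), 1.19 ± 0.22 for Tff3 (adjusted p = 0.00747), 0.91 ± 0.16 for Muc13 (adjusted p = 0.00646), 0.84 ± 0.26 for Agr2 (adjusted p = 0.0378) and 0.83 ± 0.22 for Spink4 (adjusted p = 0.0242). The Clca3 row rose by 3.18 ± 0.75 (adjusted p = 0.0159), and Zg16 (2.91 ± 1.12, adjusted p = 0.0794) and the Clca1 row (-0.58 ± 0.33, adjusted p = 0.213) were not called. The 6 lists held 2, 4, 1, 2, 6 and 1 higher genes here, and 1 granule gene was lower.

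The Paneth-low cells of the groups were different mixtures. At day 3 enterocyte-range cells were 15.8% of them in the control and 72.3% and 64.8% with KPT-330, and enteroendocrine-range cells 30.3% against 11.7% and 15.6%. In the Paneth-low cells outside both of these ranges (8 to 824 cells per KPT-330 library, the fewest in day 6 replicate 1), KPT-330 was higher than control at 6 of 6 time points for Muc2, Tff3, Fcgbp, Agr2, Muc13 and Guca2a and at 5 of 6 for Spink4. The median log2 ratio over the time points was 1.83 for Muc2, 1.79 for Tff3, 1.83 for Fcgbp, 1.37 for Agr2, 1.04 for Spink4, 0.83 for Muc13 and 1.51 for Guca2a. These values are given without a test and were computed after the data were seen. Days with 2 libraries were compared by their means, and how many of all genes were higher at 6 of 6 time points is not given here. Muc2 at day 0.25 rested on 5 UMIs with KPT-330 and 8 in the control. KPT-330 day 6 replicate 1 held 0 Muc2 and 2 Guca2a UMIs in its 8 cells.

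The calls of Agr2 and Fcgbp were lost without KPT-330 day 3 replicate 2 or day 6 replicate 1, and that of Fcgbp also without control day 6 replicate 2. Of the 8 rows called, 4 were lost without day 3 (Muc2, Fcgbp, Agr2 and Spink4), 3 without day 6 (Fcgbp, Spink4 and the Clca3 row) and 2 without day 4 (Agr2 and Spink4), and Agr2 was also lost without day 1, without day 2 and with library totals. KPT-330 day 6 replicate 1 stood apart, since it had 47 Paneth-low cells and the 10th percentile of the Paneth share over its cells was 2.03%, against at most 0.383% in the other libraries. The difference of the KPT-330 effect between the ranges was tested itself, and none of the 10 rows was called, where 0.00814% of 12290 genes (1 gene) were called and 1920 had an unadjusted p under 0.05. The log2 difference, Paneth-high minus Paneth-low, was -1.34 ± 0.38 for Guca2a (edgeR, adjusted p = 0.134), -2.35 ± 0.81 for Muc2 (adjusted p = 0.183), -0.64 ± 0.27 for Muc13 (adjusted p = 0.249) and -0.92 ± 0.43 for Spink4 (adjusted p = 0.303), and the other 6 rows ran from -2.76 to 0.25. A difference between the ranges was therefore not shown.

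Zg16 and the Clca3 row were concentrated in few cells. The 1% of cells with the most UMIs of a gene held 98.0% of the Zg16 UMIs and 90.8% of the Clca3 UMIs, against 20.7% for Muc2, 22.8% for Fcgbp, 12.2% for Tff3 and 6.76% for Muc13. Zg16 was detected in 337 cells and Clca3 in 664, and 143 cells held both, which is 42.4% of the first and 21.5% of the second. Cells with 5 or more UMIs of the pair were set apart, a limit chosen after the values were seen, with 36 cells just below it at 4 UMIs and 29 just at it. Of these 269 cells, 124 (46.1%) were Paneth-high, 60 middle and 85 (31.6%) Paneth-low, beside 6743, 1709 and 11425 of all 19877 kept cells. The pooled cells thus did not fall on 1 side of the Paneth ranges, but libraries differed. Their median Paneth share was 0.0594% in KPT-330 day 1, 0.243% in control day 2 and 17.3% in KPT-330 day 6 replicate 1. That last library held 59 of them, and 84.8% of all its cells were Paneth-high. Its 97 cells with 2% or more enterocyte UMIs had a median Paneth share of 3.70%, against at most 0.406% in the other libraries. The Paneth share was thus raised there in such cells too, so the ranges are less certain in that library. The cause was not tested.

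These cells made up 0% and 0.0683% of the ENR+CV libraries. In the controls they were 0.175%, 0.620%, 1.19%, 0.339%, 0.0646%, and 1.18% and 0.361% in order of day, and with KPT-330 0.107%, 1.47%, 4.09%, 2.66% and 2.05%, 1.96%, and 6.45% and 0.599%. KPT-330 libraries lay above the controls at days 1 to 4, but at day 6 replicate 1 with 59 of 915 cells was the highest of all and replicate 2 with 6 of 1001 lay between the 2 controls. In ENR+CV replicate 1 the count was 0 of 531 cells, which allows a share of up to 0.565% (3 cells of the total), while the upper end of the 95% Wilson interval is 0.718% (both counting error only). The limit of 5 UMIs was not adjusted for depth, which differed between libraries. At day 6 the median was 8463 and 2701 UMIs per cell in control replicates 1 and 2, and 4189 and 3390 in those of KPT-330. The part of depth in these shares was not tested. As these cells were chosen by Zg16 and Clca3, shares and not those genes are described here, without a test.

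**Figure D4:**
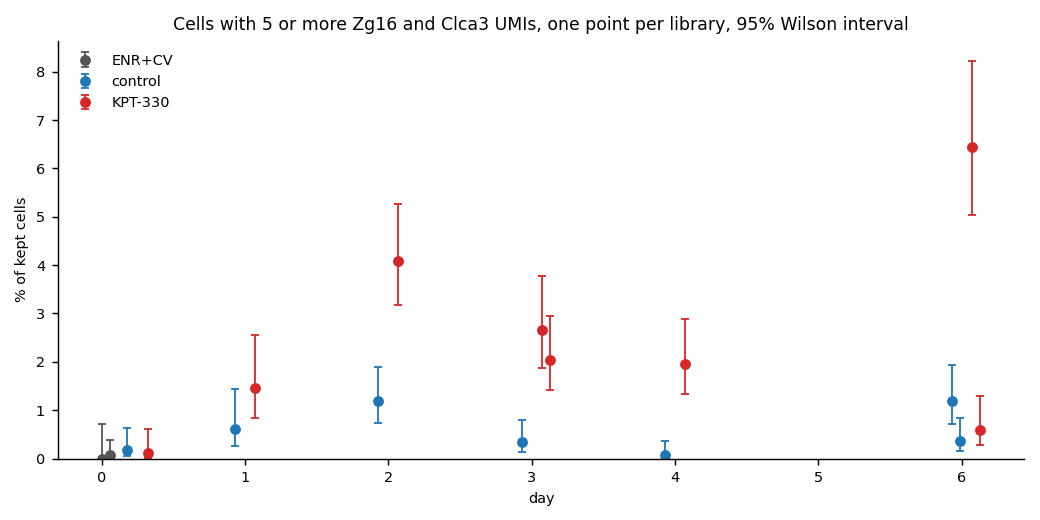
Share of kept cells with 5 or more Zg16 and Clca3 UMIs in each library (percent, with the 95% Wilson interval for counting error) against day, for ENR+CV, control and KPT-330. KPT-330 points at days 1 to 4 lay above the control points, and at day 6 they stood at 6.45% and 0.599%. The counts were not adjusted for the depth of a library.

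The other members were measured in the same cells. These values are pooled over days and libraries, without a spread, and the sets compared differ in their make-up by day. KPT-330 day 2 and day 6 replicate 1 gave 57 and 59 of the KPT-330 cells. Fcgbp in all Paneth-high cells with KPT-330 was at 142 at day 2 and at 40.7 and 45.6 at day 6. At days 2 to 6, Fcgbp was at 387 UMIs per 10000 in the 43 control and 407 in the 205 KPT-330 cells, against 58.3 and 73.8 in the remaining Paneth-high cells and 6.14 and 7.12 in the remaining Paneth-low cells. Agr2 was at 52.8 and 51.5 against 16.0 and 15.2 in the remaining Paneth-high cells, Muc2 at 15.1 and 16.0 against 5.07 and 4.49, and Tff3 at 199 and 209 against 114 and 99.1. Spink4 at 92.9 and 91.2 stood nearer to its 74.7 and 70.0, and Muc13 at 19.0 and 22.5 stood close to its 19.9 and 22.4. Guca2a was at 26.0 and 19.4 against 21.1 and 20.7, but these are pooled values, and its median over cells was 8.41 in the control and 14.0 in the KPT-330 cells against 14.4 and 14.5 in the remaining Paneth-high cells.

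When these cells were left out of the Paneth-low range, the members parted. The median log2 ratio of KPT-330 to control over the 6 time points went from 1.16 to 0.42 for Muc2, from 0.53 to 0.22 for Tff3, from 0.54 to 0.28 for Fcgbp, from 0.63 to -0.02 for Agr2 and from 0.45 to -0.02 for Spink4. For Muc13 it stayed at 0.61, and for Guca2a it went from 1.44 to 1.26. KPT-330 stayed higher at 6 of 6 time points for Muc2, Muc13 and Guca2a, and at 3, 4, 3 and 3 for Tff3, Fcgbp, Agr2 and Spink4. These values are given without a test.

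Across the 17 libraries the genes most like each member were named by Pearson's r of log2(CPM + 1), among 12602 genes, as a description over libraries that share days and media. Muc2 was most like Tpsg1 (r = 0.984), Spink4 (0.984) and Tulp4 (0.983), and Spink4 most like Habp2 (0.988), Rap1gap (0.985) and Muc2. Agr2 was most like Spdef (0.986), Rap1gap (0.984) and Cbfa2t3 (0.980), Tff3 most like Fndc3a (0.978), Mcf2l (0.975) and Slc12a8 (0.973), and Guca2a most like the Paneth list gene Mmp7 (0.981), Ramp1 (0.980) and Lrrc26 (0.978). Muc13 was most like Mfsd11 (0.967), Slc41a2 (0.963) and Atp6ap1 (0.963). Fcgbp was most like Spsb2 (0.936), the enterocyte list gene Cyp3a11 (0.935) and Slc6a20a (0.926). Zg16 had no close match, with Ugt2a3 (0.830) first, followed by Slc20a1 (0.824) and Ptprh (0.807). The Clca1 row was most like Mex3a (0.956), with D15Ertd621e (0.941) also near it, and the Clca3 row most like Cyp3a13 (0.922), Fer1l6 (0.913) and Slc41a2 (0.885). With Lyz1, the lysozyme of Paneth cells, r was 0.947 for Muc2, 0.659 for Fcgbp and 0.478 for Zg16.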

How the data were processed

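UMI counts were measured per gene and cell in 17 Seq-Well S3 libraries, a microwell single-cell RNA-seq method. Per the labels and methods, the authors aligned reads to mm10 with STAR, collapsed UMIs with the Drop-seq pipeline and deposited raw counts. Of 26229 barcodes in the deposited tables, 23053 pass the stated limits (over 500 genes, under 30000 UMIs, under 35% mitochondrial), and the authors, who also filtered on housekeeping genes and doublets, kept 19877. No doublet caller was run again, and 14 kept barcodes occur in more than 1 library. Whether counting used the strand is not given in the sources used here.

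Counts of kept cells were summed per library (3458887 to 12433109 UMIs), or per library and Paneth range with at least 20 cells and the Paneth genes removed, and tested with edgeR 4.0.16 (quasi-likelihood, TMM, filterByExpr, Benjamini-Hochberg, threshold 0.05) in R 4.3.3. Day contrasts were fitted with 1 mean per group of the labels over all libraries, where single libraries were assumed to vary like groups of 2 (4 residual degrees of freedom), and KPT-330 contrasts with time point as a term. The fits were tested on simulated data with 200 changed genes. Recovery at a log2 change of 1 ran from 46% for the difference between ranges to 89% for KPT-330 over all time points (12478 genes). The share of wrong calls ran from 2.21% within Paneth-high cells to 10.9% for days 2 to 4 against ENR+CV. It was 7.89% for day 6 against ENR+CV, so in some contrasts it exceeded the threshold of 0.05. Likeness used genes with at least 100 UMIs. Alternatives were DESeq2 1.42.0, other scalings, filters, cell and Paneth limits, left-out libraries and days, and a replicate block. Those leaving out a control library of days 2 to 4, taking each replicate number alone, or leaving out KPT-330 day 6 replicate 1 from the Paneth contrast were chosen after seeing the data. Promoters and synonyms came from RefSeq (GRCm38.p6, 5 of the 9 members had a promoter entry) and gene positions from GENCODE. Named were all members, in each list the up to 4 called genes with the smallest p, and the 3 genes most like each member, except for 2 genes that are not reported here. The members and lists were chosen with earlier results of these data known. Intervals and floors cover counting error only.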

Additional observations from a re-analysis of the deposited data

Results flagged for a closer look

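Zg16 moved in opposite directions with KPT-330 early and late. Its log2 ratio of KPT-330 over control was -2.56 at day 0.25 and 2.60 at day 6, and it was lower at days 0.25 and 1 and higher at days 2, 3, 4 and 6. The early direction rests on few cells. In the control library of day 0.25, 157 of the 175 Zg16 UMIs were in 1 cell, and without it the control level of 0.0226 UMIs per 10000 lay below the 0.0372 of KPT-330, so the direction at that day turned. When the cell with the most Zg16 was left out of the KPT-330 library as well, 2 UMIs remained there against 18. Its level was then 0.00439, again below the control. At day 1, 71 of the 113 control UMIs were in 1 cell, and the control without it was at 0.0856, above the 0.0694 of KPT-330. The late direction has a like limit. At day 6, 103 of the 107 UMIs of KPT-330 replicate 2 were in 1 cell, and without it that library was at 0.0100, below both controls (0.0957 and 0.0699). In control replicate 2 of that day, 30 of the 31 UMIs were in 1 cell, and without it that library was at 0.00226, below this 0.0100. Tested as a change of the effect from days 0.25 to 2 to days 3 to 6, the log2 difference was 3.06 ± 1.24 (edgeR, adjusted p = 0.419), which was not called.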

How the results depend on the processing

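Of the 10 rows, 8 were called for day 6 against ENR+CV in the main setting and 8 or 9 under the 16 alternatives, and for days 2 to 4 the count ran from 7 to 10 under 18, the Clca3 row being lost without either ENR+CV library. For KPT-330 over all time points the count of 8 ran from 7 to 10 except for libraries with replicate number 1 alone (2 rows, Guca2a and Clca3, with 125 genes called in all in place of 3661). Without day 6 Spink4 was lost, and Zg16 and the Clca1 row gained calls with all barcodes within the stated limits, without the filter on low counts and without day 0.25. For day 6 against days 2 to 4 the count of 1 became 4 without the filter, 2 with DESeq2 and with all barcodes within limits, 0 with cells of at least 1000 genes, and 0 to 2 without single libraries (11 to 262 genes in all in place of 122, and 617 without the filter). For KPT-330 at day 6 the count of 1 became 3 with library totals (559 genes in all in place of 168, 3.58% of them higher in place of 50%), 7 without the filter (806 genes), 5 with DESeq2, 2 with cells of at least 1000 genes and 0 to 2 without single libraries (1 to 228 genes). The replicate number as a block gave 2 rows and 280 genes there; only 2 pairs share a number and the labels do not say what it marks. For the change of the effect over time the count of 0 became 3 without the filter (349 genes). Within Paneth-high cells the count of 1 became 5 without the filter (938 genes in place of 547), 2 with DESeq2, 3 with the range set at 2%, 1 to 3 without single libraries and 2 without day 6. Within Paneth-low cells the count of 8 became 4 without day 3 (369 genes in place of 2332), 5 without day 6, 6 without day 4 and 6 to 9 without single libraries. For the difference between the ranges the count of 0 became 6 without the filter (466 genes in place of 1), 1 with DESeq2 (149 genes), and 0 to 2 without single libraries (902 genes without KPT-330 day 6 replicate 2, with Guca2a and Muc2 called). For Paneth-high against Paneth-low cells the count of 8 became 8 or 9, Zg16 changed from -1.19 to 0.59 with DESeq2 and to 0.35 with controls and ENR+CV only, and the Clca3 row from 0.60 to -0.050 with Paneth-high set at 10% and to -0.45 without day 6. Library totals shifted the median of all genes by -0.12 for day 6 against ENR+CV, -0.40 for KPT-330 at day 6, -0.12 within Paneth-high cells, -0.25 within Paneth-low cells (16.9% of calls higher in place of 43.6%) and 0.23 for the difference between ranges. The cause of these changes was not tested. Depth limits the Clca1 row (638 UMIs), Zg16 and Clca3 most.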

Other observations

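Ang4, an antimicrobial ribonuclease listed both among the goblet and the Paneth genes, was singled out after its values were seen. Over all time points its log2 fold change with KPT-330 was -0.03 ± 0.13 (edgeR, adjusted p = 0.894). Its level was 1.04 UMIs per 10000 in the control and 0.729 with KPT-330 at day 0.25, 0.839 against 1.14 at day 1 and 2.68 against 2.89 at day 2. It was 11.1 in the control library of day 3 and 7.84 and 6.48 with KPT-330, 29.9 against 19.2 at day 4, and 46.9 and 58.8 against 35.8 and 47.3 at day 6. At day 6 Itln1, a lectin, stood at 407 and 425 in controls and 564 and 601 with KPT-330, and Lyz1 at 121 and 132 against 237 and 279.

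In the enteroendocrine-range cells, Tff3 at days 2 to 6 ran from 2.63 to 7.68 UMIs per 10000 outside the Paneth list over 5 control libraries and from 0.964 to 3.53 over 5 KPT-330 libraries, and Muc13 from 5.27 to 9.54 and from 4.61 to 10.5. Muc2 had a median of 0.0238 in controls and 0.102 with KPT-330.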
